A study of Homo sapiens with 6 samples.

Results

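The genes described here encode the enzymes and regulators of cholesterol and fatty acid synthesis, measured by RNA sequencing in HCT116 cells, a human colorectal carcinoma line. The 36 genes were chosen by symbol, with their differences in these libraries already known, out of 18750 genes with counts. They comprise 8 genes of the mevalonate pathway, 11 of the sterol pathway, 8 of SREBP control and sterol transport, and 9 of fatty acid synthesis and desaturation. All 36 passed the filter on low counts that left 13750 genes to be tested. One group, si-AC010789.1, was transfected with a short interfering RNA against the long noncoding RNA AC010789.1, and the other, siRNA-NC, with a negative control. Each group had 3 libraries, and the same parental line, medium and transfection served both. The comparison asks how the transcriptome differed once AC010789.1 had been targeted. AC010789.1 itself was not analysed here, so its depletion was not checked, and the labels name only the targeting.

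Cholesterol is built from acetyl-CoA, which the mevalonate pathway turns into isoprenoids that the sterol pathway joins and cyclizes. Fatty acids are made from the same acetyl-CoA by carboxylation, chain building, desaturation and elongation. Transcription of both branches is raised by the SREBP factors, which leave the endoplasmic reticulum with SCAP and are cut in the Golgi by the proteases of MBTPS1 and MBTPS2. When sterols are plentiful, the INSIG proteins hold SCAP back. Proliferating tumour cells commonly run both branches for membrane lipids.

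Each library held between 11277222 and 13443866 counts, and 3 counts corresponded to between 0.223 and 0.266 CPM (counts scaled to the library total). The labels do not say how the libraries of a group were obtained, and the study describes them as biological repeats made from differing cell generations. The p-values measure the spread between these libraries. Of 10 markers of colonic epithelium, KRT8 ranged from 444 to 850 CPM and KRT18 from 351 to 535 CPM. CLDN4, a tight junction protein, was at 25.7, 22.5 and 24.5 CPM in siRNA-NC, but at 28.9, 0.320 and 1.78 CPM in the si-AC010789.1 libraries. Libraries 2 and 3 of si-AC010789.1 thus lay far below the other 4 libraries. EPCAM was at most 5.59 CPM, CLDN3 at most 0.349 CPM, and KRT19, KRT20, CDX2, VIL1 and CEACAM5 had no counts here, so defining intestinal markers of the labelled line were absent from the values analysed. Of 6 fibroblast markers, 4 had counts, and their sum ranged from 59.7 to 69.3 CPM in siRNA-NC and from 63.8 to 68.6 CPM in si-AC010789.1. No more than 2.51 CPM came from the 4 endothelial markers or from the 5 leukocyte markers in any library, and the 5 hepatocyte markers had no counts. The part of cell identity in the results was not tested. In bulk RNA, fewer cells expressing a gene and less RNA per cell cannot be told apart.

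The start-site regions of the members show what they share in sequence, which their choice did not use. SREBP factors are weak activators alone and act beside NF-Y, which binds the CCAAT box, and SP1, which binds the GC box. RefSeq promoters (GRCh38.p14) ran from 250 bases before to 50 after each start. They were used for 32 of the 36 members, all but ACAT2, FASN, FDFT1 and SQLE. Those left out were not searched, so the shares of members cover only the promoters used. The stretches below lie upstream of the start and outside annotated exons, and are printed for called members FDPS and STARD4, for 3 other enzymes of the cholesterol branch and for the regulator INSIG1. The printed genes were picked by hand, and every stretch shown holds a CCAAT box. Other members had none in their full promoters, among them CYP51A1, PMVK, FADS1 and MBTPS2. Capitals mark the CCAAT box, which reads ATTGG on the other strand, and the GC box, searched as GGGCGG and, on the other strand, read as CCGCCC.
FDPS, chr1:155308616-155308747, plus strand: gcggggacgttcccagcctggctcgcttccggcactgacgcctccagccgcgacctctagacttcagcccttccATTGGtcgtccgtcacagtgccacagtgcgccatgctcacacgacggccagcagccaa
STARD4, chr5:111512591-111512785, minus strand: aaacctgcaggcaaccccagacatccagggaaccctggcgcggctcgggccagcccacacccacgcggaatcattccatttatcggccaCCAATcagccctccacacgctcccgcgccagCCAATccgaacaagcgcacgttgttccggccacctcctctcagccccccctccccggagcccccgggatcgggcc
HMGCS1, chr5:43313513-43313662, minus strand: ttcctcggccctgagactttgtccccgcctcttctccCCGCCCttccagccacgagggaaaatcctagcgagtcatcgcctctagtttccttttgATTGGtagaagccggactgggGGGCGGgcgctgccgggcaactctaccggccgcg
MSMO1, chr4:165327419-165327622, plus strand: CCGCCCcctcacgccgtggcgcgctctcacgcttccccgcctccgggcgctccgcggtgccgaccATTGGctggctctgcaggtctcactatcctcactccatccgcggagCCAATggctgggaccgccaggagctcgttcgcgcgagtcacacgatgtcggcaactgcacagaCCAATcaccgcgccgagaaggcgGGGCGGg
NSDHL, chrX:152830813-152830966, plus strand: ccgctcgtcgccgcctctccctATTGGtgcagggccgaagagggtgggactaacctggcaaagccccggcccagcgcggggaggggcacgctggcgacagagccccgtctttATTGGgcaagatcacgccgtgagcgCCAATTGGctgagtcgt
INSIG1, chr7:155297628-155297775, plus strand: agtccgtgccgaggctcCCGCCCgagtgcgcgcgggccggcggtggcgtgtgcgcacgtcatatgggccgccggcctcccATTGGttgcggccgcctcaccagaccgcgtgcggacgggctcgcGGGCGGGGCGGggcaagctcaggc

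The NSDHL stretch holds 4 CCAAT boxes, of which a pair overlap, the MSMO1 stretch 3 and the STARD4 stretch 2. Each of FDPS, HMGCS1 and INSIG1 holds 1 CCAAT box here, and INSIG1 also has 3 GC boxes, a pair of them overlapping. CCAAT was searched on both strands over the full promoters and occurred in 23 of 32 members (71.9%). The share was 42.9% of the 11393 other genes of the count table with a promoter, and by promoter it was 60% of 45 member promoters against 34.6% of all 35116. GGGCGG occurred in 28 of 32 members (87.5%) against 74.7% of the other genes, and in 82.2% of member promoters against 45.0% of all promoters. The E-box CACGTG was present in 5 of 32 members (15.6%; ELOVL5, INSIG1, LSS, SC5D and SCAP) against 12.3% of the other genes, and in 13.3% of member promoters against 7.26% of all. The sterol regulatory element was searched as TCACNCCAC, with N standing for any base, and was found in SREBF2 alone, that is in 3.12% of members against 1.55% of the other genes. A match is a description of the letters and not a site of binding.

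The lipid synthesis genes differed widely in level among themselves. Levels between genes are compared per transcript length, as TPM, in which counts are scaled by length and library total. SCD, the desaturase that makes monounsaturated fatty acids, stood first in siRNA-NC at 929 ± 7.73 TPM (SD, n = 3). FDPS, which makes farnesyl diphosphate, followed at 494 ± 21.7 TPM, and ACLY, which releases acetyl-CoA from citrate, at 438 ± 15.5 TPM. The siRNA-NC libraries of SCD, FDPS and ACLY did not overlap with one another. FADS1, the delta-5 desaturase, at 354 ± 39.1 TPM, and FASN, the fatty acid synthase, at 307 ± 28.7 TPM, did overlap. In si-AC010789.1, FASN stood at 416 ± 6.82 TPM and FADS1 at 288 ± 1.46 TPM, so that FASN lay above FADS1 in all 3 libraries. The lowest levels in siRNA-NC were those of TM7SF2, a sterol C14 reductase, at 10.2 ± 1.49 TPM and of ELOVL6, an elongase of long saturated chains, at 6.63 ± 0.899 TPM.

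Of the 36 members, 31 (86.1%) had a log2 fold change above 0 in si-AC010789.1, and their median was 0.20. Over all genes tested, 49.9% lay above 0 and the median was -0.00066. The differences were small: the log2 fold changes ran from -0.70 for INSIG1 to 0.65 for SC5D. Both lists of enzymes of the cholesterol branch lay above 0 throughout, with medians of 0.28 in the mevalonate pathway (8 of 8) and 0.20 in the sterol pathway (11 of 11). Fatty acid genes had a median of 0.19 (7 of 9), and the genes of SREBP control and sterol transport one of 0.03 (5 of 8).

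**Figure D1:**
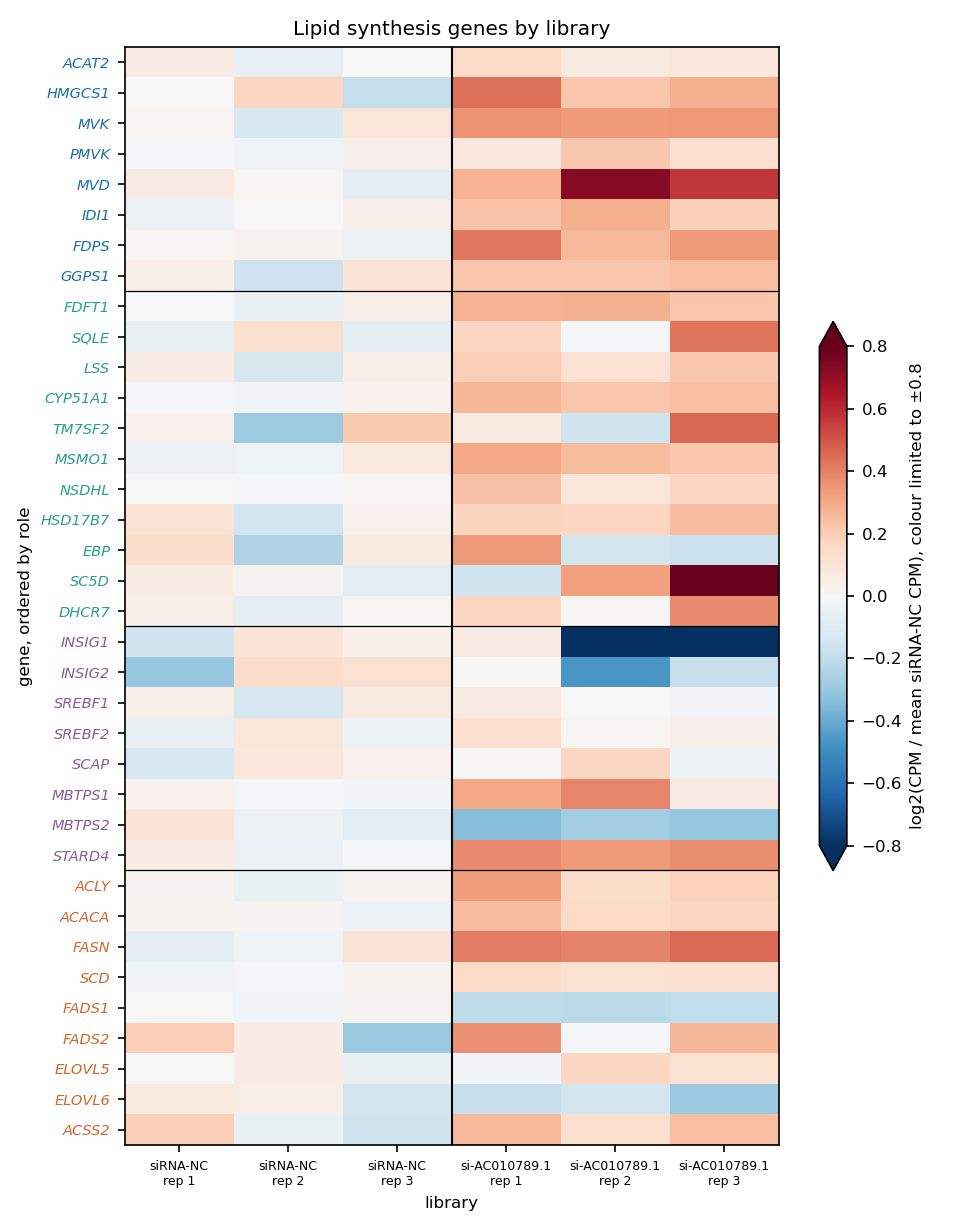
Heat map of log2(CPM divided by the mean siRNA-NC CPM) for the 36 genes (rows, ordered from the top as mevalonate pathway, sterol pathway, SREBP control and sterol transport, and fatty acid synthesis and desaturation) in the 6 libraries (columns), with colours limited to ±0.8. In the si-AC010789.1 columns every mevalonate row is red, whereas MBTPS2, FADS1 and ELOVL6 are blue in all 3 libraries and INSIG1 in 2.

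The shift appeared in each si-AC010789.1 library. The median over the members of the log2 ratio to the siRNA-NC mean was 0.21, 0.15 and 0.21 in si-AC010789.1 libraries 1 to 3, and 0.02, -0.03 and 0.03 in siRNA-NC libraries 1 to 3. Those of the 3 si-AC010789.1 libraries thus all lay above those of the 3 siRNA-NC libraries. The siRNA-NC medians are small by construction, since the ratios were taken to the mean of those same libraries. The members were also chosen with this contrast known, so the separation describes them and supports nothing further. By library, 26, 23 and 27 of the 36 members exceeded every siRNA-NC library, beside 28.8%, 30.6% and 29.3% of all genes tested. The summed level of the mevalonate genes was 1256, 1262 and 1209 CPM in siRNA-NC and 1548, 1470 and 1483 CPM in si-AC010789.1. Summed sterol pathway levels were 1346, 1287 and 1355 CPM against 1553, 1469 and 1641 CPM, and summed fatty acid levels were 5641, 5607 and 5807 CPM against 6569, 6332 and 6467 CPM. These 3 sums did not overlap between the groups, whereas the sums of SREBP control and sterol transport did, at 1033, 1092 and 1073 CPM against 1156, 996 and 960 CPM.

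Across all genes tested with edgeR's quasi-likelihood test, 0.982% had an adjusted p under 0.05, with 0.284% higher and 0.698% lower in si-AC010789.1. Among the members 3 of 36 were called, FASN, STARD4 and FDPS, all of them higher. No member was called lower in this fit; at an unadjusted p under 0.05 there were 17 higher and 2 lower, beside 8.25% and 8.92% of all genes tested. DESeq2 called 9 higher and 1 lower, beside 2.26% and 3.16% of the 9746 genes to which it gave an adjusted p. Because the members were chosen with this contrast known, these counts describe them and support nothing further. By CPM, all 3 si-AC010789.1 libraries lay above all 3 siRNA-NC libraries in 20 members, and in 3 they all lay below. Such separation occurred in 12.2% of all genes tested for higher and 12.9% for lower. By TPM, which depends on how counts were divided among transcripts, some of these members overlapped between the groups. They were ACAT2, FDFT1, LSS, HSD17B7, MBTPS1 and ACACA among those higher by CPM, and ELOVL6 among those lower. The other separated members did not overlap by TPM either.

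**Figure D2:**
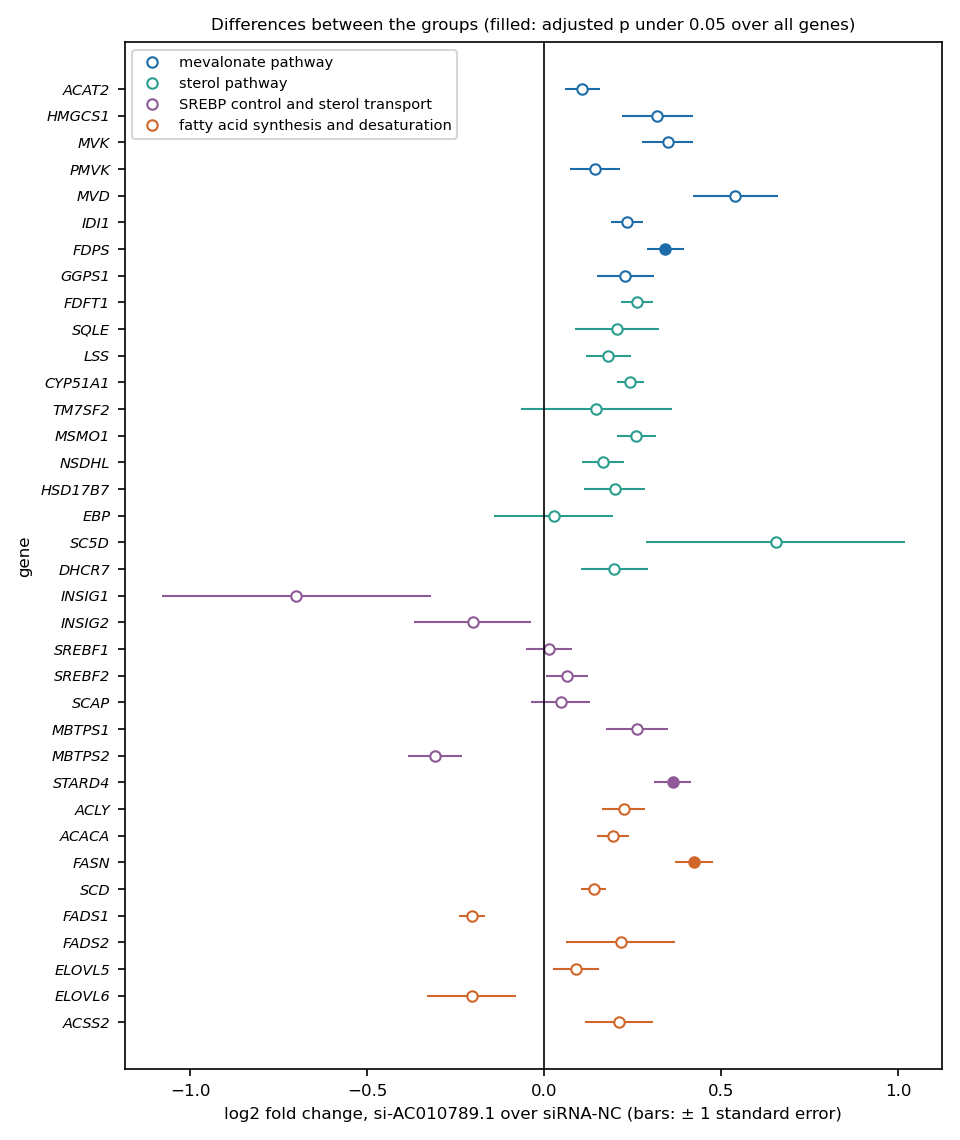
Log2 fold change of si-AC010789.1 over siRNA-NC (x axis) for each of the 36 genes (y axis), coloured by role, with bars of 1 standard error and filled points for an adjusted p under 0.05. Filled points mark FDPS, STARD4 and FASN, and the widest bars belong to INSIG1 and SC5D.

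FASN (ENSG00000169710.8, GRCh38 chr17:82078333-82098332, minus strand) builds palmitate from malonyl-CoA. It was at 1084, 1113 and 1223 CPM in siRNA-NC and at 1517, 1504 and 1564 CPM in si-AC010789.1. Every si-AC010789.1 library was above every siRNA-NC library, with means of 1140 ± 73.6 and 1529 ± 31.2 CPM (SD, n = 3). The log2 fold change was 0.42 with a standard error of 0.055 and an edgeR adjusted p of 0.0333.

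STARD4 (ENSG00000164211.12, GRCh38 chr5:111496033-111512590, minus strand) carries cholesterol between membranes in the cytosol. Its siRNA-NC libraries gave 80.6, 75.0 and 76.7 CPM and its si-AC010789.1 libraries 100.62, 98.03 and 100.01 CPM. The groups did not overlap, with a log2 fold change of 0.36, a standard error of 0.053 and an edgeR adjusted p of 0.0434. STARD4 exons overlap those of STARD4-AS1 on the opposite strand.

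FDPS (ENSG00000160752.14, GRCh38 chr1:155308748-155320666, plus strand) was at 264, 266 and 253 CPM in siRNA-NC and at 349, 313 and 331 CPM in si-AC010789.1. The lowest si-AC010789.1 library was again above the highest siRNA-NC library. The log2 fold change was 0.34 with a standard error of 0.053 and an edgeR adjusted p of 0.0482, just inside the threshold. CYP51A1, the lanosterol 14-alpha demethylase, lay just outside it at 0.0517. FDPS overlaps RUSC1-AS1 on the opposite strand and has 8 annotated pseudogenes, with which reads could have been shared. How the counting treated strand and shared reads is not given in the sources used here.

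The 3 calls were lost without a filter on low counts, with the replicate number as a block and when single libraries were left out, except that FASN was still called without siRNA-NC replicate 3. Calls over all genes fell too, from 0.982% to 0.368% without the filter and to 0% with the block. With single libraries left out they were between 0.0859% and 0.264%. The edgeR adjusted p reached 0.126 for FASN, 0.171 for STARD4 and 0.174 for FDPS with the block, while the log2 fold changes stayed above 0 in all 12 alternatives.

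**Figure D3:**
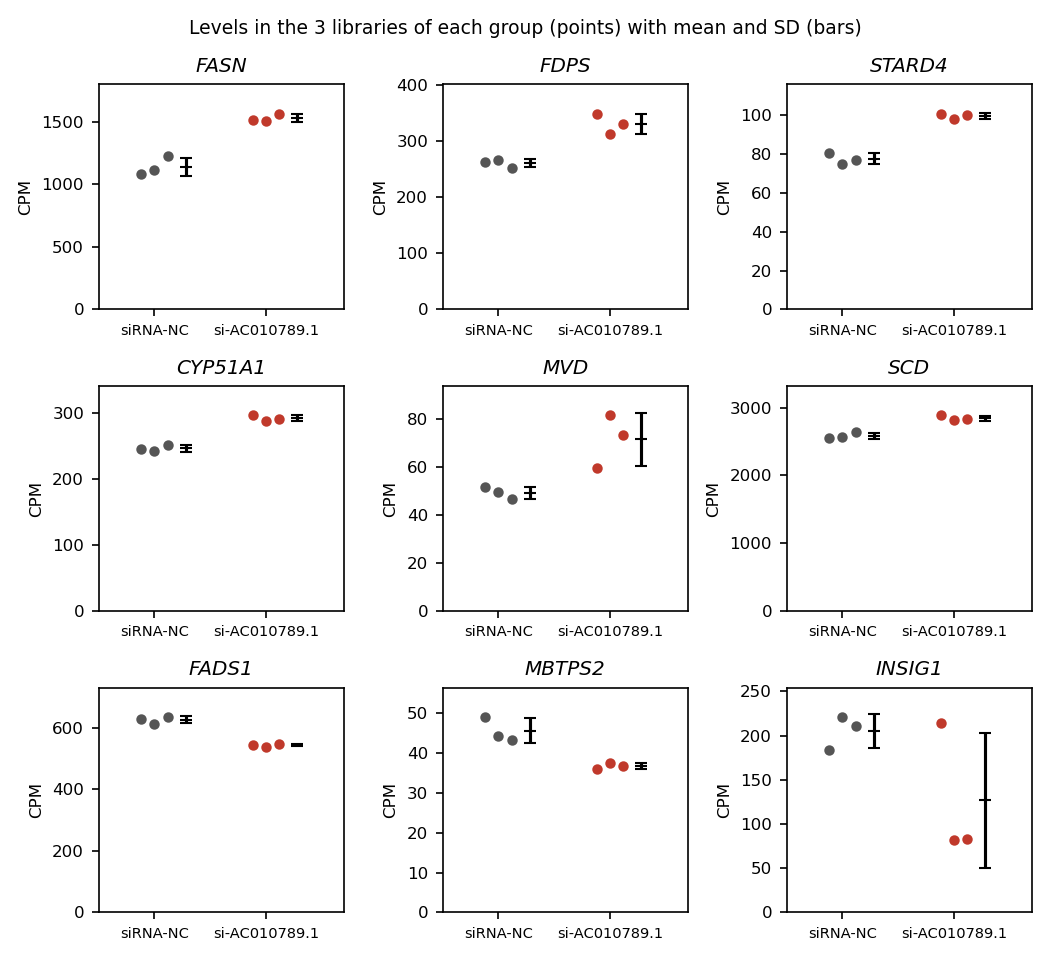
CPM (y axes, starting at 0) of 9 genes in the 3 libraries of siRNA-NC (grey) and si-AC010789.1 (red), with the mean and SD in black beside the points. FASN, FDPS, STARD4, CYP51A1, MVD and SCD sit higher in si-AC010789.1, FADS1 and MBTPS2 lower, and INSIG1 has 1 library among the controls and 2 far below.

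The other mevalonate genes were all separated upward. ACAT2, whose enzyme joins acetyl-CoA units, was at 251, 228 and 240 CPM in siRNA-NC against 267, 252 and 255 CPM, a narrow gap. HMGCS1, the HMG-CoA synthase, was at 321, 358 and 280 CPM against 434, 374 and 390 CPM. For the mevalonate kinase MVK the levels were 54.2, 49.3 and 57.5 against 68.9, 67.8 and 68.2 CPM. The si-AC010789.1 libraries of MVK lay closer together than those of siRNA-NC.

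PMVK, the phosphomevalonate kinase, was at 36.1, 35.4 and 37.4 CPM against 38.5, 42.1 and 39.6 CPM. The decarboxylase MVD, which makes isopentenyl diphosphate, had the widest difference of the mevalonate genes, with 51.6, 49.5 and 46.6 CPM against 59.7, 81.6 and 73.3 CPM (log2 fold change 0.54, standard error 0.12). Its first si-AC010789.1 library was much nearer to the controls than the other two. IDI1, the isomerase that readies isoprene units for chain building, was at 199, 206 and 210 CPM against 240, 249 and 234 CPM. GGPS1, which makes the geranylgeranyl diphosphate used in protein prenylation, was at 80.0, 69.5 and 84.1 CPM against 90.9, 91.0 and 91.8 CPM. Exons of ACAT2, HMGCS1, MVK, IDI1 and GGPS1 overlap other annotated genes.

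In the sterol pathway, 6 of 11 genes were separated, all upward. FDFT1, the squalene synthase that commits farnesyl diphosphate to sterols, was at 203, 195 and 210 CPM in siRNA-NC and at 246, 246 and 236 CPM in si-AC010789.1. LSS, which cyclizes squalene epoxide to lanosterol, was at 221, 194 and 220 CPM against 243, 231 and 247 CPM. CYP51A1 was at 245, 243 and 252 CPM against 297, 288 and 292 CPM. The spread of CYP51A1 was small in both groups, with coefficients of variation of 1.97% and 1.57%.

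MSMO1 and NSDHL act in the removal of the methyl groups at carbon 4 of the sterol ring. MSMO1 was at 106, 107 and 116 CPM against 135, 131 and 128 CPM, and NSDHL at 70.2, 69.2 and 70.5 CPM against 82.2, 74.9 and 78.3 CPM. HSD17B7, the keto reductase of the same step, was at 49.5, 41.2 and 47.0 CPM against 51.9, 51.6 and 54.4 CPM. CYP51A1 and HSD17B7 have annotated pseudogenes, and FDFT1, LSS and CYP51A1 overlap other genes.

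The remaining 5 sterol genes overlapped between the groups. SQLE, the squalene epoxidase, had means of 157 ± 12.4 and 181 ± 27.8 CPM, and DHCR7, which makes the last reduction on one route to cholesterol, 162 ± 7.32 and 186 ± 23.4 CPM. TM7SF2 was at 6.24 ± 1.04 and 6.91 ± 1.53 CPM and the isomerase EBP at 75.5 ± 10.3 and 76.9 ± 16.2 CPM. The direction of TM7SF2 and of EBP turned with the library left out. SC5D, the lathosterol desaturase, was at 43.6, 42.6 and 39.5 CPM in siRNA-NC and at 37.5, 52.6 and 107.6 CPM in si-AC010789.1, so that 1 library was below the controls and another far above them.

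The transcription factors and their escort differed little. SREBF1, which mainly drives fatty acid genes, was at 185, 164 and 189 CPM in siRNA-NC and 188, 179 and 176 CPM in si-AC010789.1, with a log2 fold change of 0.01. SREBF2, which mainly drives cholesterol genes, was at 284, 315 and 285 CPM against 323, 298 and 303 CPM (0.06). SCAP was at 83.7, 97.1 and 93.9 CPM against 92.0, 102.7 and 89.0 CPM (0.05). In all 3 genes the libraries of the groups were interleaved, and for SREBF1 and SCAP the sign turned with the library left out.

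The 2 proteases that cut SREBP were separated in opposite directions. MBTPS1, the site-1 protease, was at 128, 124 and 123 CPM in siRNA-NC and at 155, 164 and 131 CPM in si-AC010789.1. MBTPS2, the site-2 protease, was at 49.1, 44.4 and 43.3 CPM against 36.0, 37.6 and 36.8 CPM, a log2 fold change of -0.31. Neither passed the threshold, with edgeR adjusted p of 0.211 for MBTPS1 and 0.122 for MBTPS2. MBTPS2 exons overlap YY2 on the same strand.

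INSIG1, the sterol-sensitive brake on SCAP and itself a textbook SREBP target, went against the enzymes in 2 of 3 libraries. It was at 184, 221 and 211 CPM in siRNA-NC, and at 215, 82.4 and 82.9 CPM in si-AC010789.1. The first si-AC010789.1 library lay within the control range and the other 2 well below it. With all libraries the log2 fold change was -0.70 with a standard error of 0.38 and an edgeR adjusted p of 0.406. Without si-AC010789.1 replicate 1 it was -1.32 with an adjusted p of 0.0229. The same 2 libraries that were low for INSIG1 were low for CLDN4, and the part of that difference between libraries in the result was not tested. INSIG2, the paralog that is less dependent on sterols, was at 37.9, 51.7 and 51.1 CPM against 47.3, 34.0 and 41.2 CPM, and the groups overlapped.

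Of the 9 fatty acid genes, 4 were separated upward and 2 downward. ACLY was at 738, 698 and 741 CPM in siRNA-NC and at 915, 805 and 823 CPM in si-AC010789.1. ACACA, the carboxylase that makes malonyl-CoA, was at 296, 295 and 282 CPM against 346, 324 and 328 CPM. SCD was at 2546, 2565 and 2634 CPM against 2886, 2811 and 2839 CPM. Like FASN, all 3 genes were higher in every si-AC010789.1 library than in any siRNA-NC library. ACLY overlaps an antisense gene and SCD has an annotated pseudogene.

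The 2 genes separated downward were FADS1 and ELOVL6. FADS1, whose enzyme acts in the making of arachidonic acid, was at 627, 614 and 635 CPM in siRNA-NC and at 544, 539 and 547 CPM in si-AC010789.1. Its log2 fold change was -0.20 with a standard error of 0.036, and its edgeR adjusted p of 0.0658 missed the threshold. ELOVL6 was at 8.60, 8.45 and 7.35 CPM against 7.16, 7.35 and 6.64 CPM. The ELOVL6 groups nearly touched. FADS2, the delta-6 desaturase beside FADS1 on chromosome 11, had overlapping groups at 39.1 ± 6.58 and 45.4 ± 5.88 CPM; FADS1 and FADS2 exons overlap on opposite strands. The other overlapping members were ELOVL5, an elongase of polyunsaturated chains, at 115 ± 4.63 and 122 ± 8.12 CPM, and ACSS2, which makes acetyl-CoA from acetate, at 159 ± 20.3 and 184 ± 9.04 CPM.

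Read beside the promoters, CCAAT was present in 14 of the 17 members separated upward whose promoters were used, all but CYP51A1, MBTPS1 and PMVK. It was present in none of the 3 separated downward (FADS1, ELOVL6 and MBTPS2) and in 9 of the 12 that overlapped. GGGCGG was present in 15 of 17, 2 of 3 and 11 of 12. This split was counted after the values were seen and is given with no test.

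The table lists transcripts, and 364 of them belonged to the members. Of these 209 were tested, and none was called with edgeR, beside 0.0135% of all transcripts tested. At an unadjusted p under 0.05 there were 21, beside 5.73% of all transcripts tested, and DESeq2 called 5, beside 1.54%. The share of a gene's counts given to its leading transcript ranged by more than 20 percentage points between libraries in 21 of 36 members. The median coefficient of variation within a group was 5.04% for the gene sums and 15.5% for the leading transcripts. Gene sums were thus the steadier measure in these libraries.

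FASN was divided evenly throughout, with 52.2% to 56.5% of its counts in the leading transcript ENST00000306749, and CYP51A1 had 96.0% to 97.9% in ENST00000003100. In STARD4 the second transcript, ENST00000512160, had 407, 9 and 402 counts in siRNA-NC, against 2, 557 and 585 in si-AC010789.1. The leading one, ENST00000296632, had 397, 856 and 507 against 1045, 547 and 530 counts. The 2 transcripts of STARD4 thus traded counts between libraries of both groups while the gene sum stayed separated.

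In SC5D the jump of the third si-AC010789.1 library lay in ENST00000264027, where siRNA-NC had 55, 85 and 54 counts and si-AC010789.1 had 350, 60 and 1158. ENST00000534230 had 295, 360 and 329 counts against 0, 417 and 0. The 2 libraries with most counts of the former had none of the latter. In INSIG1, ENST00000340368 carried 1860, 2730 and 2579 counts against 2318, 809 and 839, which is the pattern of the gene sum.

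The MVD transcript ENST00000301012 had 192, 240 and 191 counts in siRNA-NC, against 497, 740 and 336 in si-AC010789.1. Its retained-intron transcript ENST00000565149 had 297, 306 and 268 counts against 68, 136 and 350. The protein-coding transcript was thus higher in all 3 si-AC010789.1 libraries, and the retained-intron one lower in 2 of them. For FDFT1, ENST00000615631 had 0, 1 and 0 counts in siRNA-NC, against 708, 972 and 182 in si-AC010789.1, with an edgeR adjusted p of 0.153. Since the way in which reads were divided among transcripts is not given in the sources used here, these are counts of the table and not of molecules.

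**Figure D4:**
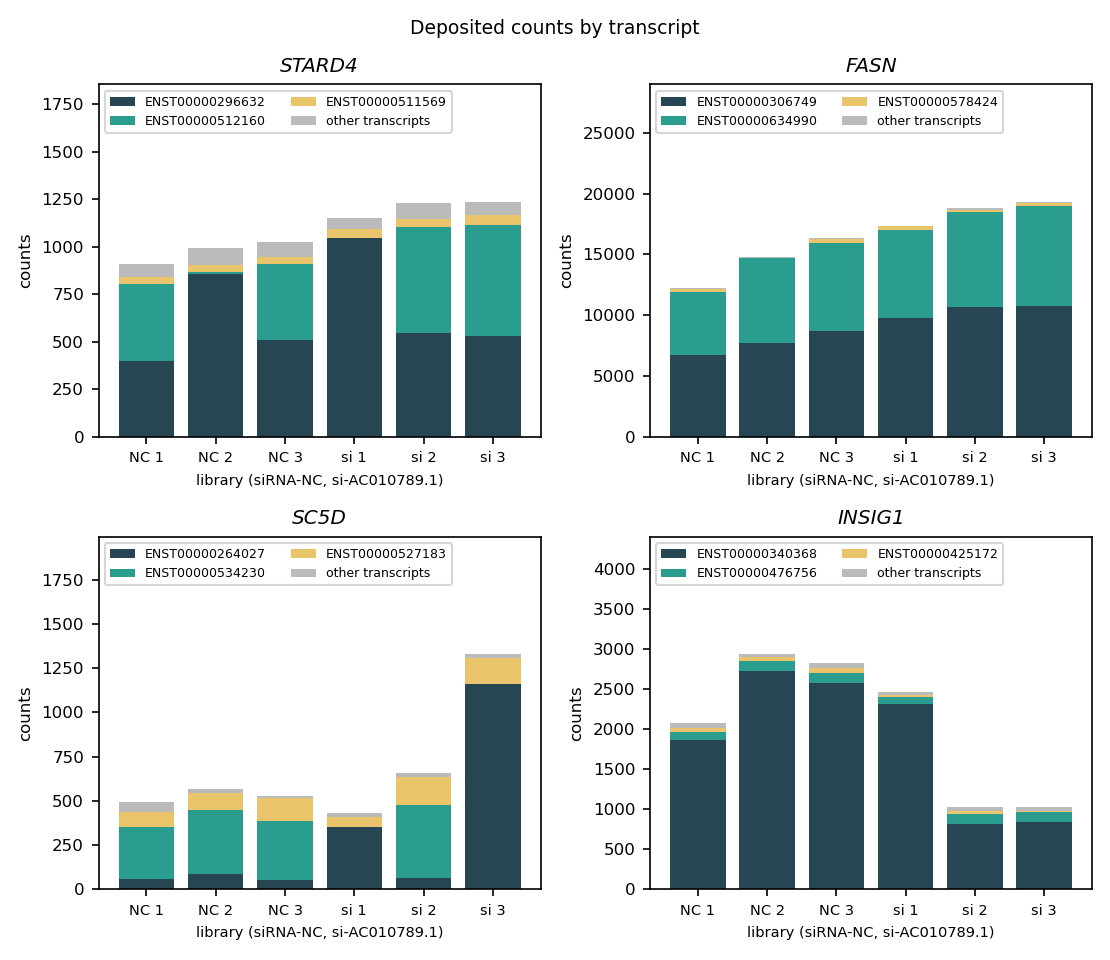
Deposited counts (y axes) by transcript in the 6 libraries (x axes; NC is siRNA-NC and si is si-AC010789.1) for STARD4, FASN, SC5D and INSIG1, stacked from the 3 leading transcripts and the sum of the others. FASN keeps an even division, and STARD4 and SC5D switch between transcripts from library to library. The fall of INSIG1 in si 2 and si 3 lies in its leading transcript, ENST00000340368.

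A wider set of 107 lipid genes in 6 lists showed no such shift as a whole. Of the 100 that were tested, 50 lay above 0 and 50 below. The members and lists were chosen with earlier results known, so this contrast describes them and supports nothing further. In this set 13 were separated upward and 12 downward, near the 12.2% and 12.9% of all genes tested. The one call with edgeR was SEC23A, a subunit of the COPII coat that carries SCAP and SREBP out of the endoplasmic reticulum. SEC23A was at 140, 137 and 143 CPM in siRNA-NC and at 98.4, 86.6 and 92.6 CPM in si-AC010789.1. The groups lay far apart, with a log2 fold change of -0.60, a standard error of 0.061 and an edgeR adjusted p of 0.0190. SEC23A was not called with the replicate block or in 5 of 6 fits that left out a library. DESeq2 called 8 of these genes, beside 5.42% of all genes to which it gave an adjusted p. The 8 were SEC23A, PDSS2, SOAT1, OSBP, LIPA, ME1, CHPT1 and CEPT1.

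The genes of isoprenoid use had a median log2 fold change of 0.0017, with 7 of 14 above 0. The widest difference there was that of PGGT1B, a subunit of a prenyltransferase, at 21.8 ± 3.63 and 32.3 ± 15.4 CPM. Sterol sensing partners had a median of -0.0048 (5 of 12 above 0), and genes of sterol transport, efflux and storage one of 0.00038 (11 of 21). Of the latter, 1 was separated upward and 6 downward, beside 12.2% and 12.9% of all genes tested. ABCA1, the cholesterol exporter, was at 2.57, 2.41 and 2.18 CPM against 1.92, 1.60 and 1.30 CPM, with an edgeR adjusted p of 0.278.

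Fatty acid elongation and activation had a median of 0.04 (9 of 16), and its widest difference was in ACSL5, an acyl-CoA synthetase, at 5.80 ± 0.127 and 3.65 ± 0.447 CPM. Fatty acid oxidation, the opposing pathway, had a median of -0.09 with 5 of 18 above 0. Its differences were small, and the widest was in ECI1, an enoyl-CoA isomerase, at 23.0 ± 2.88 and 29.1 ± 3.74 CPM. Glycerolipid synthesis had a median of 0.07 (13 of 19), with 5 separated upward and none downward, beside 12.2% and 12.9% of all genes tested. CEPT1, which makes phosphatidylcholine and phosphatidylethanolamine, was at 22.4, 19.4 and 23.8 CPM against 32.8, 33.7 and 32.4 CPM, with an edgeR adjusted p of 0.0556.

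**Figure D5:**
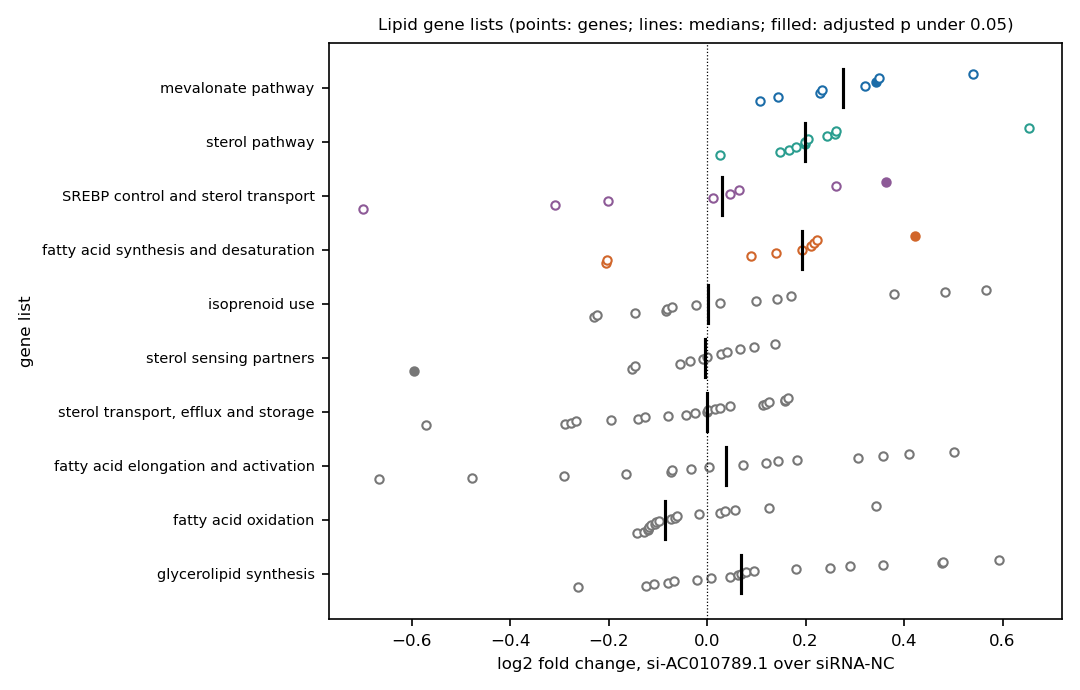
Log2 fold change of si-AC010789.1 over siRNA-NC (x axis) for the tested genes of the 4 roles (coloured) and of the 6 other lipid lists (grey), with 1 point per gene, a line at each list's median and filled points for an adjusted p under 0.05. All points of the mevalonate and sterol pathways lie right of 0, whereas the grey lists lie on both sides and SEC23A is their filled point.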

How the data were processed

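Total RNA of HCT116 cells was sequenced as paired-end TruSeq libraries, 3 per group. The authors deposited raw counts, 1 whole number for each Ensembl transcript in each library; the submitters' processing notes name CASAVA 1.8, TopHat2 2.0.6 and the builds GRCh38 and mm10 (mouse), while the counting program is not given in the sources used here. From these counts, gene sums were computed through GENCODE v29, with 98782 of 98886 transcripts matched. CPM used TMM-scaled totals and TPM the annotated transcript lengths. Genes were tested with edgeR 4.0.16 (filterByExpr minima of 10 per library and 15 in total, quasi-likelihood model) in R 4.3.3 over all 6 libraries, with Benjamini-Hochberg adjustment over all genes and a threshold of 0.05. The script was tested on simulated data with less spread than the common value fitted here. That test does not show how well small differences are found in these libraries. The study names Cuffdiff, which needs alignments and was not run. Alternatives were DESeq2 1.42.0, limma 3.58.1 on quantile-normalized values, other filters and scalings, a replicate block and leaving out each library.

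The members and lists were chosen with earlier results of these data known. Every member was named. Library values were given for members called or with groups that did not overlap, and for INSIG1, INSIG2, SREBF1, SREBF2, SCAP and STARD4. SC5D, CLDN4, the lipid genes called with DESeq2 and the transcripts shown were added after their values were seen. From each other list, the called genes were named, or otherwise the gene with the largest absolute log2 fold change. SDs cover 3 libraries, and count floors cover counting error only.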

Additional observations from a re-analysis of the deposited data

How the results depend on the processing

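Of the 36 members, 3 were called with edgeR. The number was 10 with DESeq2 (9 higher, and FADS1 lower), which called 5.42% of all genes against 0.982% with edgeR. It was 0 without a filter on low counts, where 0.368% of all genes were called and 19 members had an unadjusted p under 0.05. It ranged from 0 to 1 when single libraries were left out: FASN without siRNA-NC replicate 3, INSIG1 without si-AC010789.1 replicate 1, and none without the other 4. Those fits called between 0.0859% and 0.264% of all genes. With quantile normalization or library totals 4 members were called, CYP51A1 being added. The median log2 fold change over the members ranged from 0.16 to 0.21 with single libraries left out. The other lipid genes called numbered 8 with DESeq2, 0 with the replicate block and from 0 to 1 with single libraries left out. Of the member transcripts, 5 were called with DESeq2. With single libraries left out, the log2 fold change ranged from -0.012 (siRNA-NC replicate 1 out) and -0.014 (si-AC010789.1 replicate 2 out) to 0.090 in SCAP. In EBP it ranged from -0.16 (si-AC010789.1 replicate 1 out) to 0.12, with -0.082 lacking siRNA-NC replicate 2. In SREBF1 the same pair of libraries gave -0.014 and -0.049 in a range up to 0.049, and TM7SF2 ranged from -0.041 (si-AC010789.1 replicate 3 out) to 0.28. The other 32 members kept their direction in all 12 alternatives. The causes were not tested.

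With the replicate number as a block, 0 members and 0 genes in all were called, and 22 members had an unadjusted p under 0.05. Deviations of same-numbered libraries correlated at 0.098, 0.0050 and 0.0075, so the numbers were not taken as a pairing.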
